A study of Mus musculus with 36 samples.

Results

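The IkB family of NF-kB regulators was followed through its 6 genes Nfkbia, Nfkbib, Nfkbie, Nfkbid, Nfkbiz and Bcl3, taken as the rows whose symbol equals one of these names. All 6 were found, among 19879 genes in the deposited tables, and all 6 passed the filter on low values in every comparison. The cells were BV-2, an immortalised wild-type mouse microglial line, so that the values describe a single line and not brain microglia. Its RNA was sequenced in 36 libraries, 3 for each of 12 groups, which the design text ascribes to 3 independent experiments. DMSO alone and ethanol (EtOH) alone were the vehicle groups. Lipopolysaccharide from Escherichia coli (LPS, a bacterial cell wall component that activates microglia, at 600 ng/mL) was given alone or together with 30 µM dimethyl fumarate (DMF), 30 µM monomethyl fumarate (MMF) or 6 µM cannabidiol (CBD). DMF and MMF were dissolved in DMSO and CBD in EtOH, with the vehicle at 0.2%, and every group was collected after 4 h and after 24 h. For the LPS experiments the serum in the medium was lowered to 0.1% before treatment. The labels do not name the vehicle that the LPS group itself received, so that a drug and its vehicle cannot be told apart in a comparison with LPS alone. Replicates are numbered 1 to 3 in the groups with LPS and 4 to 6 in the vehicles. In comparisons with a vehicle, LPS therefore cannot be told apart from any difference between these sets of replicates.

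NF-kB transcription factors are held inactive by IkB proteins, which mask them in the cytoplasm until an IkB kinase marks the inhibitor for destruction. Toll-like receptor 4, the receptor for LPS, is a classical trigger of this step in microglia and macrophages, and the freed NF-kB then drives the genes of several of its own inhibitors, closing a negative feedback loop. Atypical members of the family act mainly in the nucleus, where they bind NF-kB subunits on DNA and adjust which target genes are switched on or off.

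Each library held between 14110424 and 26676607 reads counted in genes, with a median of 16230584. All 12 macrophage and microglia markers were detected, with Csf1r (4625 to 15408 normalized counts over the 36 libraries), Cd68 (4432 to 12840.0) and Spi1 (2317 to 7789) high and with Cx3cr1 (9.36 to 370.1), P2ry12 (15.8 to 102) and Tmem119 (19.1 to 223) low. The neuronal marker Rbfox3 ran from 0 to 1.2 and the oligodendrocyte marker Mog from 0 to 1.13, although Mbp, a gene also transcribed in blood cells, ran from 658 to 1508. Astrocyte markers summed to 2.95 to 24.2 and endothelial markers to 42.6 to 138 normalized counts per library. Within the 8 LPS-treated groups, replicate 2 was the highest library for Bcl3 in 8, for Nfkbia and Nfkbie in 7 each and for Nfkbiz in 5, whereas it was the highest for Nfkbib in 2 and for Nfkbid in 1. The origin of this shared excess was not tested.

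Normalized counts below are read counts divided by each library's size factor, on a scale common to the 36 libraries. Log2 fold changes come from limma fits of log2(normalized count + 1), each on the 6 libraries of its own deposited table, or on 12 for a change of an effect between times. A gene is said to be called where its p-value, adjusted by the Benjamini-Hochberg method over all genes tested, was below 0.05, and values in parentheses after a left-out library or another method are adjusted p-values. A replicate block is the same fit with the replicate number as a further term, and a single fit is a limma model over all 36 libraries. Where numbers are said to pair libraries, this rests on a rule on correlations given with the processing.

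Nfkbia (ENSMUSG00000021025, chromosome 12, 55536195 to 55539432, minus strand) encodes IkBalpha, the fast-acting inhibitor that NF-kB itself induces. Nfkbib (ENSMUSG00000030595, chromosome 7, 28457676 to 28466937, minus strand) encodes IkBbeta and Nfkbie (ENSMUSG00000023947, chromosome 17, 45866629 to 45874095, plus strand) encodes IkBepsilon, the other classical cytoplasmic inhibitors. The atypical members are Nfkbid (ENSMUSG00000036931, chromosome 7, 30121157 to 30128171, plus strand), which encodes IkBNS, Nfkbiz (ENSMUSG00000035356, chromosome 16, 55631738 to 55659262, minus strand), which encodes IkBzeta, and Bcl3 (ENSMUSG00000053175, chromosome 7, 19542387 to 19556695, minus strand), whose product binds the p50 and p52 subunits. Coordinates are those of the deposited tables on GRCm39, and all 6 genes are protein coding. The strand setting of the read counting was not stated. Overlaps were taken between whole gene spans, introns included, in the GENCODE annotation of GRCm39. Nfkbib overlaps Sirt2 over 778 bases on the opposite strand and Ccer2 over 908 bases. Bcl3 shares 14117 bases with the non-coding gene Gm16175, and Nfkbia shares 1136 bases with the non-coding gene Gm36634. How much of these overlaps lies in exons was not measured. Reads from such overlaps cannot be assigned here, so that the levels of Nfkbib, Bcl3 and Nfkbia carry this uncertainty, while Nfkbid, Nfkbiz and Nfkbie overlap no other annotated gene. Sirt2, a deacetylase gene, was itself expressed at 755 to 2689 normalized counts, and Ccer2 at 0 to 4.54.

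Promoter windows are shown because at least 5 of the 6 members were called higher in LPS alone than in either vehicle at both times. Each window covers 250 bases before and 50 bases after a RefSeq transcription start (GRCm38.p6), and each matched GRCm39 exactly at the position given. The 10-base kappaB consensus bound by NF-kB was searched on both strands. It was found in 1474 of 32544 promoter windows of the same length, or 4.53%. Windows were given for 5 members and not for Nfkbiz. A match was found for Nfkbia, Nfkbie, Bcl3 and the second of 3 Nfkbid starts, and none for Nfkbib or the other Nfkbid starts. Capitals mark the matches, and a match is a description of the letters only. Sequences are printed 5′ to 3′ on the strand of the gene.
Nfkbia, chr12:55539383-55539682, minus strand: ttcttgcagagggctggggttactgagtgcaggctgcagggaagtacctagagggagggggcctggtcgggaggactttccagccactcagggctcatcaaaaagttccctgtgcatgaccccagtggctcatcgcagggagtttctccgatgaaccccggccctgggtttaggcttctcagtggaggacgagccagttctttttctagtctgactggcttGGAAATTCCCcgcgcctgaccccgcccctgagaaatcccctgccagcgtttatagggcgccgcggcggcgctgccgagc
Nfkbie, chr17:45866376-45866675, plus strand: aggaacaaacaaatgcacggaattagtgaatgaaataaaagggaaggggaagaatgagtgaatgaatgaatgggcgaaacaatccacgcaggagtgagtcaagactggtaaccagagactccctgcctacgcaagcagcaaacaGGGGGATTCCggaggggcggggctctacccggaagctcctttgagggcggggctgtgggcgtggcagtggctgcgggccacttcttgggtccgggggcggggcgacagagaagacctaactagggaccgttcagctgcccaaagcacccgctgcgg
Nfkbid, second start, chr7:30121581-30121880, plus strand: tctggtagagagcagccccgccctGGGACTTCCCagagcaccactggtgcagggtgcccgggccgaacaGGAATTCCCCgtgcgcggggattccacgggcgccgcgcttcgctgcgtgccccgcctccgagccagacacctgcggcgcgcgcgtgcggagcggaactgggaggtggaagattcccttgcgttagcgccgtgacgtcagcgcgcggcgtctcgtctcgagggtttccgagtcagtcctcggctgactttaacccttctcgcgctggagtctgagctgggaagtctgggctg
Bcl3, chr7:19556631-19556930, minus strand: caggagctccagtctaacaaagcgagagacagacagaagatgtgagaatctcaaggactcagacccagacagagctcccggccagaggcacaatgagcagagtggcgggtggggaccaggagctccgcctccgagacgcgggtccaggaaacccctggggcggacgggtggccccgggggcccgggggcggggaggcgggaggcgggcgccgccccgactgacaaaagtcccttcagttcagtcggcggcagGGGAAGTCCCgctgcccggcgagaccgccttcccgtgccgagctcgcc
Counted from the start as base 1, the Nfkbia match ran from -29 to -20 and the Nfkbie match from -106 to -97. The Nfkbid matches ran from -226 to -217 and from -181 to -172, and the Bcl3 match lay just after the start, from 3 to 12.

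Nfkbia was the most abundant transcript of the family in each of the 12 groups, and Nfkbie, Bcl3 and unstimulated Nfkbiz were scarce. Normalized read counts per kilobase of exon were used to compare genes. Exon lengths came from GENCODE, where every member but Nfkbiz spans more bases than in the deposited tables. The levels per kilobase are therefore approximate. On this scale the group means of Nfkbia ran from 778 to 2779.9, those of Nfkbib from 305 to 815 and those of Nfkbid from 239.8 to 813. Nfkbiz ran from 36.2 to 523, Bcl3 from 31 to 239.5 and Nfkbie from 36.1 to 93.1. The make-up of the family therefore shifted between groups. Of the summed level per kilobase, Nfkbia held 46.5% in DMSO and 53.4% in LPS at 4 h, and 63.2% in LPS with MMF at 24 h, its highest share. Nfkbiz held 2.57% in DMSO at 4 h and 13.8% in LPS with CBD at 24 h. Nfkbid moved the other way, from 26.9% in EtOH at 4 h to 7.59% in LPS with CBD at 24 h.

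**Figure D1:**
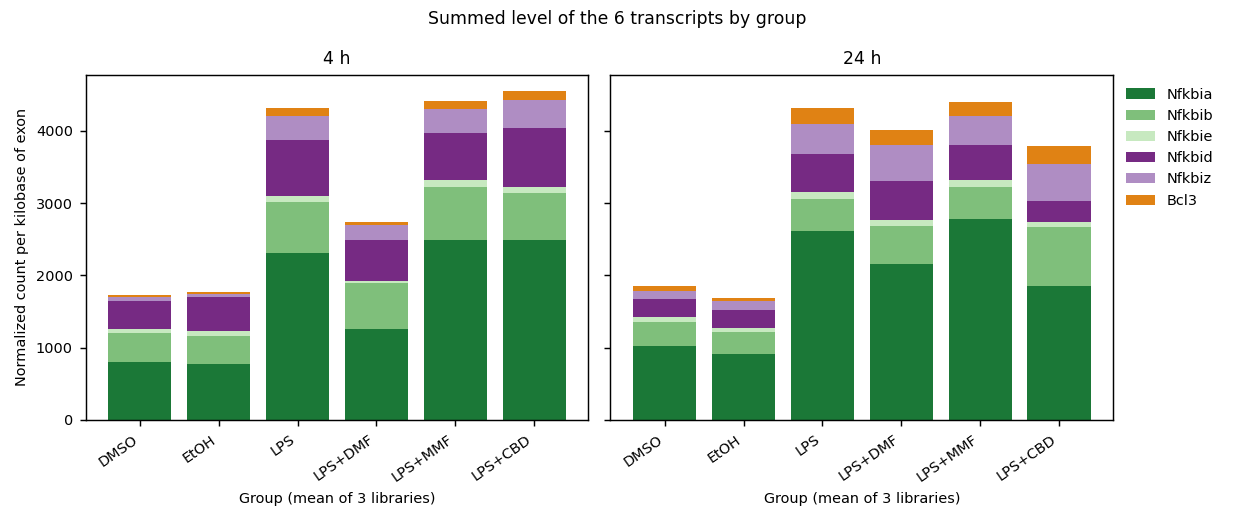
Stacked bars give the mean level of each of the 6 transcripts (normalized count per kilobase of exon, 3 libraries per group) in the 6 treatments at 4 h and 24 h. Nfkbia is the largest segment in every bar, and the Nfkbiz and Bcl3 segments are largest in the LPS-treated groups at 24 h.

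Each gene had its own order of groups. Nfkbiz varied most, with the highest group mean 14.5 times the lowest, followed by Bcl3 (7.72), Nfkbia (3.57), Nfkbid (3.39), Nfkbib (2.67) and Nfkbie (2.58). Neighbours in the order mostly could not be separated, since their libraries overlapped. For Nfkbia and Nfkbie all neighbouring groups overlapped. Nfkbiz had gaps below LPS with DMF at 4 h, which was the lowest of the LPS-treated groups, and between the vehicles at 24 h and those at 4 h. For Bcl3 the gap lay between LPS with MMF at 4 h and DMSO at 24 h, with LPS with DMF at 4 h among the vehicle groups. The Nfkbid order began with LPS with CBD and LPS alone at 4 h, then a gap, with further gaps after LPS with DMF at 4 h, EtOH at 4 h and DMSO at 4 h. LPS with CBD at 24 h and the vehicles of 24 h came after the last of these. Nfkbie was lowest in LPS with DMF at 4 h, below both vehicles in its mean. For Nfkbib, LPS with CBD at 24 h came first, and the gaps lay between the DMF groups of the 2 times and between the vehicles of the 2 times.

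**Figure D2:**
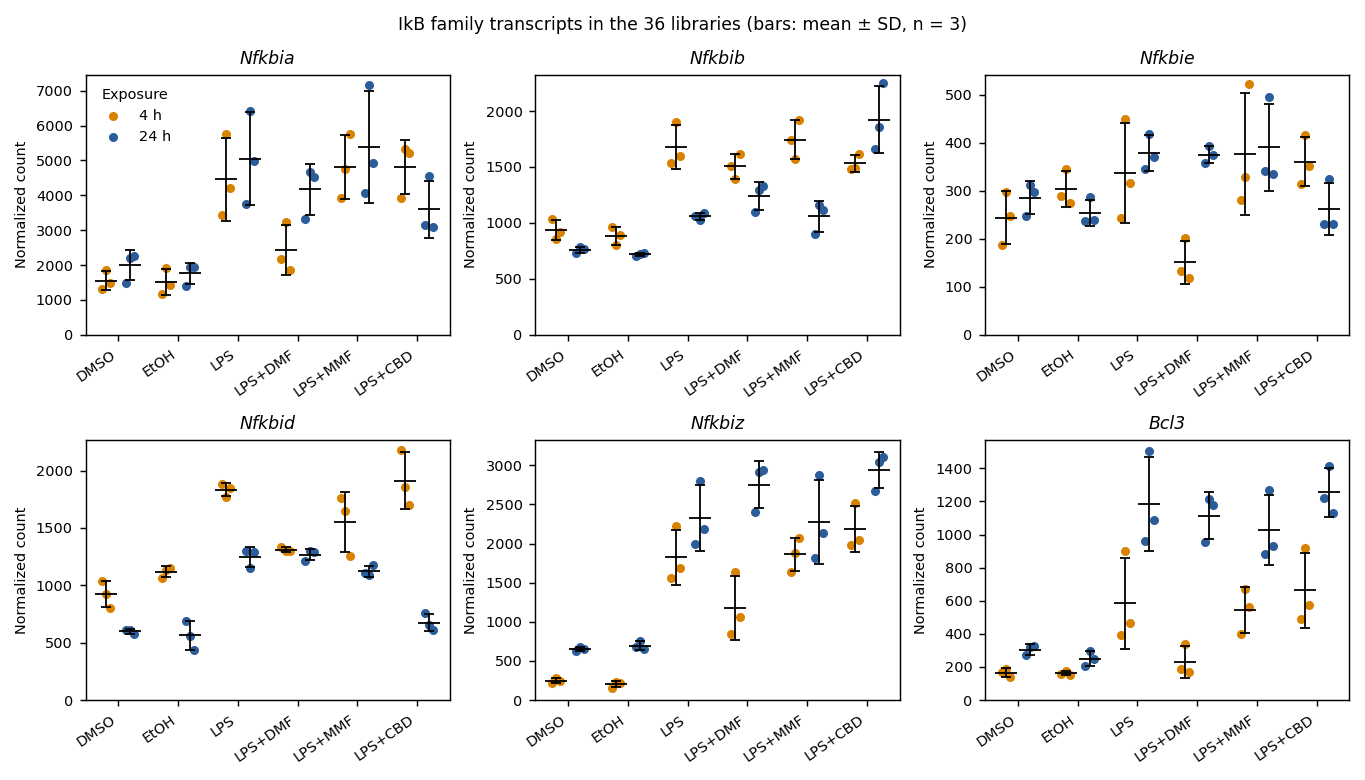
Points are single libraries (normalized count, joint scale over the 36 libraries, linear axis from 0) for each gene, at 4 h (orange) and 24 h (blue), with the mean ± SD of 3 libraries as black bars. LPS raises Nfkbiz, Bcl3 and Nfkbia well above the vehicles, LPS with DMF at 4 h is low in Nfkbia, Nfkbie and Bcl3, and LPS with CBD at 24 h is high in Nfkbib and low in Nfkbid.

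Between 4 h and 24 h, 4 of the 6 genes changed in both vehicles, upwards for Nfkbiz and Bcl3 and downwards for Nfkbib and Nfkbid. Nfkbiz stood at 224, 279 and 244 normalized counts in the DMSO libraries at 4 h and at 633, 679 and 647 at 24 h. In EtOH it stood at 158, 234 and 217 and at 682, 754 and 651, so that the times did not overlap in either vehicle. Its log2 fold change was 1.37 (standard error 0.103, adjusted p 1.07e-05) in DMSO and 1.77 (adjusted p 1.16e-05) in EtOH. Bcl3 rose by 0.86 (adjusted p 0.000532) and 0.59 (adjusted p 0.00559) on the log2 scale. Nfkbid fell from 924 ± 116 to 600.5 ± 20.7 in DMSO and from 1120.2 ± 46.1 to 564 ± 125 in EtOH (SD, n = 3), log2 fold changes of -0.64 (adjusted p 0.000362) and -1.03 (adjusted p 0.000136). Nfkbib had -0.32 (adjusted p 0.0088) and -0.31 (adjusted p 0.00804). Over all genes tested, 51.6% were called between the times in DMSO and 58.6% in EtOH, so that a count of 4 of 6 is no result about the family. Nfkbia was not called in DMSO (0.32, adjusted p 0.107; without DMSO replicate 4 at 24 h 0.00733 and without replicate 5 at 4 h 0.0163) or EtOH (0.22, 0.291; without EtOH replicate 5 at 4 h 0.0209). Nfkbie was not called in DMSO (0.22, 0.276) or EtOH (-0.27, 0.0794; without EtOH replicate 5 at 24 h 0.0436).

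DMSO and EtOH cells were not separated in any member by limma at either time. At 4 h 0 of the 6 genes passed against 0% of all genes (unadjusted p below 0.05 in 1 member and in 1051 genes, 0 members by edgeR and DESeq2, and over all genes 0 by edgeR and 87 by DESeq2). At 24 h 0 of 6 passed against 0.00854% of all genes (unadjusted in 0 members, 0 by edgeR and DESeq2). The largest log2 differences of DMSO from EtOH at 4 h were -0.32 for Nfkbie (95% confidence interval -0.72 to 0.067) and 0.31 for Nfkbiz (-0.053 to 0.68). Nfkbid differed by -0.28 (-0.48 to -0.069), and in the replicate block, whose numbers pair these libraries, its adjusted p was 0.0348. Over all genes the replicate block called 876 between the vehicles at 4 h and 20 at 24 h. With 3 libraries per group these results do not show that the vehicles were alike. LPS is therefore compared with each of them side by side.

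LPS raised the classical inhibitor genes Nfkbia and Nfkbib at both times and Nfkbie at 24 h. Nfkbia rose most of these, 2.55- to 2.95-fold. It stood at 1320.1, 1859.7 and 1480.2 in the DMSO libraries, at 1177, 1921 and 1426 in EtOH and at 3421, 5749 and 4211 in LPS at 4 h. Every LPS library lay above every vehicle library. The log2 fold change at 4 h was 1.50 (standard error 0.19, adjusted p 0.00162) against DMSO and 1.56 (standard error 0.216, adjusted p 0.00352) against EtOH. At 24 h Nfkbia stood at 3755, 6420.0 and 4987 in LPS, against 1492, 2204 and 2269 in DMSO and 1402, 1945 and 1932 in EtOH. The groups again did not overlap, with log2 fold changes of 1.35 (adjusted p 0.000502) and 1.51 (adjusted p 0.000118). In these bulk samples more cells of an expressing kind and more RNA per cell cannot be told apart.

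Nfkbib, whose product is degraded more slowly than IkBalpha, rose less. Its LPS libraries held 1533, 1899 and 1601 at 4 h and 1062, 1026 and 1086 at 24 h. DMSO held 1033, 860.0 and 918 and 732, 785 and 766, below all LPS libraries of the same time. The log2 fold changes were 0.83 (standard error 0.101, adjusted p 0.00136) and 0.92 (adjusted p 0.00114) at 4 h, and 0.49 (adjusted p 0.000848) and 0.56 (adjusted p 0.00035) at 24 h, against DMSO and EtOH in turn. Sirt2, which overlaps Nfkbib and was named after its values were seen, had log2 fold changes of 0.081 (adjusted p 0.454) and 0.22 (adjusted p 0.0925) at 4 h, and was lower in LPS at 24 h, with -0.43 (adjusted p 0.015) and -0.38 (adjusted p 0.0266). Nfkbie stood at 244, 449 and 317 in LPS at 4 h and at 187, 298 and 247 in DMSO, with the groups overlapping. At 4 h it was called against neither vehicle (0.44, adjusted p 0.254, and 0.11, adjusted p 0.789). At 24 h it stood at 345, 418 and 371 in LPS, above 248, 312 and 297 in DMSO and 236, 286 and 239 in EtOH, with log2 fold changes of 0.42 (adjusted p 0.03) and 0.58 (adjusted p 0.00565). The call against DMSO was lost without DMSO replicate 4 (0.0981) or 6 (0.0667) or LPS replicate 2 (0.073) or 3 (0.086). With all 36 libraries in a single fit Nfkbie was called against neither vehicle at 24 h (adjusted p 0.193 and 0.058).

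Among the atypical members, Nfkbiz had the largest rise of the family at 4 h and Bcl3 the largest at 24 h, by their fitted values. IkBzeta is needed in macrophages for a secondary wave of NF-kB targets such as Lcn2. Its transcript went from 224, 279 and 244 in DMSO and 158, 234 and 217 in EtOH to 1560.2, 2219 and 1688 in LPS at 4 h. The groups were far apart, with log2 fold changes of 2.85 (standard error 0.144, adjusted p 1.45e-05) and 3.16 (standard error 0.175, adjusted p 3.87e-05). At 24 h LPS held 1992, 2802 and 2190.5 against 633, 679 and 647 and 682, 754 and 651, and the log2 fold changes were 1.83 (adjusted p 2.54e-06) and 1.74 (adjusted p 2.75e-06). The rise over the vehicle was thus smaller at 24 h, and this difference was called as an interaction, -1.02 (adjusted p 0.00615) against DMSO and -1.42 (adjusted p 0.00195) against EtOH. The mean in LPS was 1822 ± 349 at 4 h and 2328 ± 422 at 24 h (SD, n = 3), and the mean in DMSO 249 ± 28.3 and 653 ± 23.5.

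Bcl3, a partner of p50 and p52 that can repress or activate targets, stood at 169.5, 189 and 138 in DMSO and 392, 899.6 and 465 in LPS at 4 h. At 24 h it stood at 269.7, 319.7 and 326 and 962, 1504 and 1090.2. LPS libraries lay above all vehicle libraries at both times, with log2 fold changes of 1.73 (standard error 0.279, adjusted p 0.00497) and 1.75 (adjusted p 0.00569) at 4 h and 1.95 (adjusted p 8.06e-06) and 2.24 (adjusted p 6.01e-06) at 24 h. Nfkbid was tightly measured. It held 1038, 928 and 807 in DMSO, 1068, 1137 and 1155 in EtOH and 1886, 1774 and 1847 in LPS at 4 h. At 24 h these were 615, 609 and 577, 691, 561 and 440.5 and 1302, 1149.9 and 1288, again without overlap. IkBNS, its product, restrains Il6 in macrophages, and the transcript rose by 0.99 (standard error 0.0926, adjusted p 0.000354) and 0.71 (adjusted p 0.000419) at 4 h and by 1.06 (adjusted p 7.59e-06) and 1.17 (adjusted p 0.000116) at 24 h on the log2 scale.

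Taking the family as a list, 5 of 6 members were called against DMSO at 4 h, all higher, where 14.1% of all genes were called. Against EtOH at 4 h they were again 5, with 10.2% of all genes. At 24 h all 6 were called higher against DMSO (22.7% of all genes) and against EtOH (20.5%). The comparisons with DMSO and EtOH share the LPS libraries. The median log2 fold change of the 6 was 1.24 and 1.24 at 4 h and 1.21 and 1.34 at 24 h, beside medians over all genes between -0.00046 and 0.0092. The effect of LPS differed between the times in 1 member, Nfkbiz, of 6 under either vehicle, where 9.36% (DMSO) and 9.05% (EtOH) of all genes were called. Against EtOH that count was 2 without EtOH replicate 4 at 24 h, which added Nfkbid (adjusted p 0.0153), and 3 without LPS replicate 2 at 4 h, which added Nfkbie (0.0378) and Bcl3 (0.0414).

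**Figure D3:**
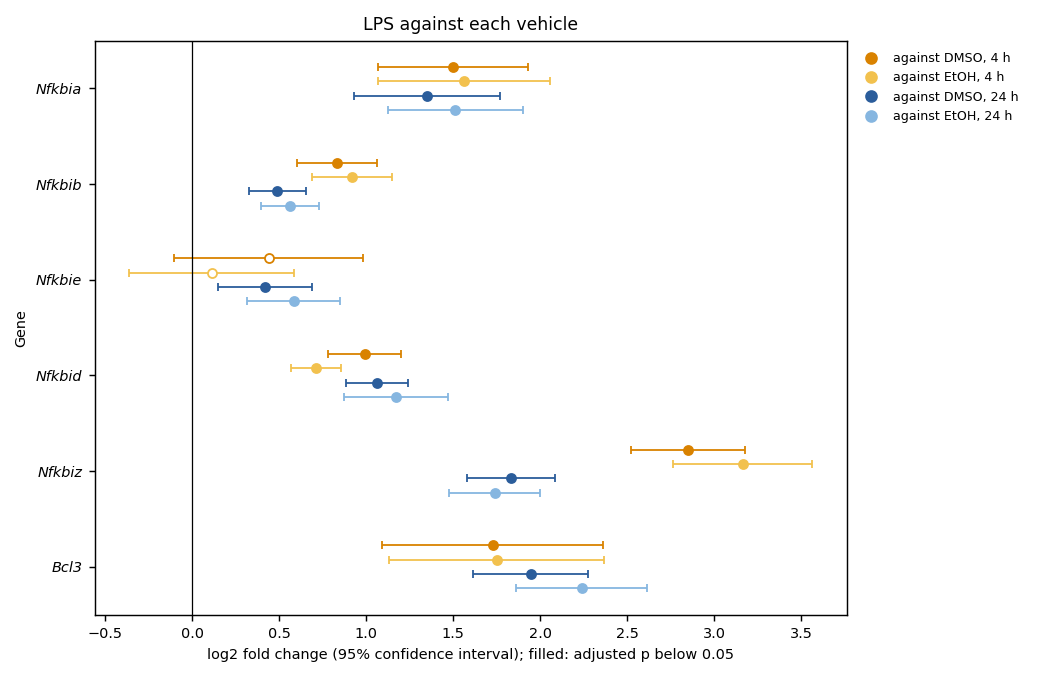
Points are limma log2 fold changes of LPS over DMSO or EtOH at 4 h and 24 h for the 6 genes, with 95% confidence intervals on 3 libraries per group, filled where the adjusted p is below 0.05. Every point lies to the right of 0, Nfkbiz lies farthest right at 4 h, and the open points are Nfkbie at 4 h.

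The genes around the family moved in part. The shares of all genes called were 14.1% and 10.2% at 4 h and 22.7% and 20.5% at 24 h, against DMSO and EtOH in turn. Of 5 NF-kB subunit genes, 4 were called higher in LPS against either vehicle at either time. Of 10 IkB kinase genes and activators, 2 were higher and 1 lower against DMSO at 4 h and 2 higher against EtOH, and at 24 h 2 were higher against each, which is close to the share of all genes. Of 6 genes of the ubiquitin machinery that destroys IkB, 0 were called by limma against DMSO at either time (unadjusted p below 0.05 in 1 at each time, 0 by edgeR and DESeq2, 1 in the single fit). Against EtOH 1 was higher at 4 h, Fbxw11 (0.27, adjusted p 0.0486), which was not called by edgeR, and 0 were called at 24 h (unadjusted in 0, 0 by edgeR and DESeq2). Fbxw11 was named after its values were seen. Of 10 negative feedback genes outside the family, 5 were higher and 1 lower against DMSO at 4 h and 5 higher at 24 h, and against EtOH 5 and 4 were higher. From 9 genes known as targets of IkBzeta or IkBNS, 7 could be tested at 4 h and 8 at 24 h. All of these were higher against both vehicles. In DMSO against EtOH only 5 passed the filter on low values at each time. The others were thus tested through their LPS libraries, so that their direction was largely set by the filter. By size of change against DMSO the leading genes of these lists were Il1b, Csf3 and Nos2 at 4 h and Lcn2, Csf3 and Il1b at 24 h. Il1b, a pro-inflammatory cytokine gene, had log2 fold changes of 6.58 (adjusted p 0.000173) and 6.06 (adjusted p 8.22e-07), Nos2, the inducible nitric oxide synthase, 4.64 (adjusted p 0.00765) at 4 h, and Lcn2, an iron-binding defence protein, 7.22 (adjusted p 3.56e-09) at 24 h. No fold is given for Csf3, whose vehicle libraries were near 0.

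DMF at 4 h lowered 4 of the 6 members below LPS alone, namely Nfkbia, Nfkbie, Nfkbid and Bcl3, where 11.1% of all genes were called. At 24 h no member was called. DMF is an ester of fumaric acid that reacts with thiols. Nfkbie stood at 134, 202 and 118 normalized counts with DMF and at 244, 449 and 317 in LPS at 4 h. All DMF libraries lay below all LPS libraries, and the log2 fold change was -1.14 (standard error 0.258, adjusted p 0.0212). Bcl3 stood at 185, 340.1 and 168 with DMF and 392, 899.6 and 465 in LPS, also without overlap, a log2 fold change of -1.32 (standard error 0.337, adjusted p 0.0365). For Nfkbia the values were 2180.1, 3238 and 1862 with DMF and 3421, 5749 and 4211 in LPS, apart by a small gap between DMF replicate 2 and LPS replicate 1, with -0.89 (standard error 0.228, adjusted p 0.0371). Nfkbid stood at 1335, 1299 and 1296, far below 1886, 1774 and 1847 in LPS, and its log2 fold change of -0.49 (standard error 0.0772, adjusted p 0.00404) was the only call of the 4 that remained whichever library was left out.

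The other 3 calls at 4 h were each lost on leaving out any 1 of 4 of the 6 libraries. The log2 fold changes in those smaller fits were -0.91 to -0.69 for Nfkbia, -1.17 to -0.91 for Nfkbie and -1.44 to -0.96 for Bcl3. Without LPS replicate 2 the adjusted p was 0.0855 for Nfkbia, 0.0511 for Nfkbie and 0.0703 for Bcl3. Without LPS replicate 3 it was 0.101, 0.0703 and 0.0747. Leaving out DMF replicate 1 gave 0.106, 0.0693 and 0.11, and leaving out DMF replicate 3 gave 0.148, 0.0943 and 0.147. By DESeq2 on the recovered reads Bcl3 had 0.0503. Nfkbiz stood at 840.5, 1636 and 1059.7 with DMF and 1560.2, 2219 and 1688 in LPS, where DMF replicate 2 overlapped the LPS libraries. Its log2 fold change of -0.67 (adjusted p 0.102) was not called, but in the replicate block, whose numbers pair these libraries, the adjusted p was 0.00451. Without DMF replicate 2 it was 0.00637, with all 36 libraries in a single fit 0.00743, and by DESeq2 0.04. Nfkbib was not called (-0.16, adjusted p 0.41). In the replicate block 5 of 6 members were called, namely the 4 above and Nfkbiz, although not every library correlated best with its own number here. The median over the 6 was -0.78, beside 0.0056 over all genes.

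After 24 h the DMF libraries were close to LPS. Nfkbia held 3319, 4671 and 4513 with DMF and 3755, 6420.0 and 4987 in LPS, Nfkbie 358, 394 and 374 and 345, 418 and 371, and Bcl3 955, 1214 and 1176 and 962, 1504 and 1090.2, all overlapping. By limma 0 of 6 were called where 25.1% of all genes were (unadjusted p below 0.05 in 1 member, 0 by edgeR and 0 by DESeq2). The replicate block, which pairs these libraries, called 3, Nfkbia (-0.26, adjusted p 0.0105), Nfkbib (0.23, 0.0312) and Nfkbiz (0.25, 0.0171). Without the block, Nfkbib was called without DMF replicate 1 (0.0213) and Nfkbiz without LPS replicate 2 (0.0126). The change of the DMF effect from 4 h to 24 h was called in 3 of 6 members, against 16.4% of all genes, towards higher values in each. It was 1.13 (standard error 0.293, adjusted p 0.0173) for Nfkbie, 0.50 (standard error 0.105, adjusted p 0.00511) for Nfkbid and 0.91 (standard error 0.285, adjusted p 0.0417) for Nfkbiz. For Nfkbiz the call was lost without LPS replicate 1 or 3 or DMF replicate 2 or 3 at 24 h, and without LPS replicate 2 or 3 or DMF replicate 1 or 3 at 4 h (adjusted p 0.0643 to 0.102), and without the filter on low values (0.0598). Bcl3 was at 1.24 (adjusted p 0.0508), and was called with the replicate block (9.22e-05), by edgeR (0.0457), in the single fit (0.0135), and without LPS replicate 2 at 24 h (0.0358), LPS replicate 1 at 4 h (0.0263) or DMF replicate 2 at 4 h (0.00826). Nfkbia at 0.62 (adjusted p 0.212) was called with the block as well (0.00673), and Nfkbib at 0.37 (adjusted p 0.0817) without DMF replicate 1 at 24 h (0.0351).

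Around the family at 4 h, where 11.1% of all genes were called, 0 of 5 NF-kB subunit genes were called for DMF by limma (unadjusted p below 0.05 in 1, 0 by edgeR and DESeq2, 1 in the single fit and in the replicate block). DMF lowered 4 of 10 negative feedback genes and, of 7 tested target genes of IkBzeta or IkBNS, lowered 4 and raised 1. In LPS with DMF against DMSO at 4 h only 6 of the targets passed the filter on low values. A target tested only through its LPS libraries had its direction largely set by the filter. Nos2 had a log2 fold change of -3.81 (adjusted p 0.0159), Il1b of -3.09 (adjusted p 0.0281) and Lcn2 of -2.37 (adjusted p 0.0073). Of 10 kinase genes and activators, 1 was higher and 2 were lower, and of 6 destruction genes 0 were called (unadjusted in 2, 0 by edgeR, 1 by DESeq2 and 2 in the single fit). At 24 h, where 25.1% of all genes were called, 1 of 5 subunit genes was higher with DMF, 2 of 10 kinase genes and activators were lower, 0 of 6 destruction genes were called by limma (unadjusted in 2, 0 by edgeR and DESeq2), and 1 of 10 feedback genes was higher and 2 lower. Of 8 tested targets 5 were higher (3 in the single fit), among them Csf3 (1.95, adjusted p 0.000681), Il1b (0.93, adjusted p 0.00775) and Ptgs2 (0.89, adjusted p 0.0136).

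MMF, the monomethyl ester, gave no call for any member at either time. At 4 h 0 of 6 were called by limma where 0.122% of all genes were (unadjusted in 0 members, 0 by edgeR and 0 by DESeq2). At 24 h 0 of 6 were called where 0% of all genes were (unadjusted in 0 members and 440 genes, 0 members by edgeR and DESeq2, and over all genes 0 and 17). Nfkbid at 4 h had MMF libraries, at 1757, 1645 and 1256, that all lay below the 1886, 1774 and 1847 of LPS, with a log2 fold change of -0.25 (adjusted p 0.691). Nfkbia overlapped at both times, as it held 3913, 4764 and 5754 with MMF at 4 h and 4061, 7160.1 and 4933 at 24 h, beside 3421, 5749 and 4211 and 3755, 6420.0 and 4987 in LPS. Bcl3 overlapped likewise, with 399, 670.0 and 564 and 882, 1270.5 and 933, beside 392, 899.6 and 465 and 962, 1504 and 1090.2. At 4 h the 95% confidence interval of the log2 difference from LPS was -0.29 to 0.55 for Nfkbia, -0.41 to 0.73 for Nfkbie and -0.68 to 0.60 for Bcl3, and narrower, -0.17 to 0.30 for Nfkbib, -0.51 to 0.014 for Nfkbid and -0.26 to 0.35 for Nfkbiz. At 24 h the intervals were -0.40 to 0.57 for Nfkbia, -0.23 to 0.21 for Nfkbib, -0.31 to 0.36 for Nfkbie, -0.33 to 0.028 for Nfkbid, -0.41 to 0.33 for Nfkbiz and -0.58 to 0.19 for Bcl3. The change of the MMF effect between the times was called in 0 of 6 members and 0% of all genes (unadjusted in 0 members and 384 genes, and 0 genes by edgeR or DESeq2).

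DMF and MMF, which differ by a methyl ester against a free acid, were compared directly at the same 30 µM dose, over 6 genes and 2 times, with p-values adjusted over all genes of each comparison. At 4 h 3 of 6 members were lower with DMF, where 8.34% of all genes were called. These were Nfkbia (-1.02, standard error 0.197, adjusted p 0.0127), Nfkbie (-1.30, standard error 0.251, adjusted p 0.0124) and Bcl3 (-1.28, standard error 0.267, adjusted p 0.0168). The DMF libraries of each lay below the MMF libraries, for example 185, 340.1 and 168 against 399, 670.0 and 564 for Bcl3. The log2 fold changes of the smaller fits in which a call was lost were -0.88 to -0.84 for Nfkbia, -1.14 to -1.05 for Nfkbie and -1.24 to -1.08 for Bcl3. Nfkbia was not called without DMF replicate 3 (0.0554) or MMF replicate 3 (0.0692), nor Nfkbie without DMF replicate 3 (0.0598) or MMF replicate 3 (0.0552). Bcl3 was not called without DMF replicate 1 (0.0526) or 3 (0.0752) or MMF replicate 2 (0.0592) or 3 (0.0822). Nfkbiz had -0.71 (adjusted p 0.0589), and 0.000276 without DMF replicate 2, 0.0117 by DESeq2 and 0.0055 with all 36 libraries. The interval of the difference was -0.44 to 0.0023 for Nfkbib and -0.51 to 0.038 for Nfkbid, which were not called.

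At 24 h limma separated DMF from MMF in 0 of 6 members, where 21.5% of all genes were called (unadjusted in 1 member, 0 by edgeR and 0 by DESeq2). With the replicate block, which pairs these libraries, 4 were called, Nfkbia lower with DMF (-0.35, adjusted p 0.00169) and Nfkbib (0.23, 0.00498), Nfkbid (0.17, 0.0277) and Nfkbiz (0.29, 0.00513) higher. Without MMF replicate 2, Nfkbiz was called without a block as well (0.00887). The intervals of Nfkbie (-0.35 to 0.28) and Bcl3 (-0.18 to 0.43) held 0.

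**Figure D4:**
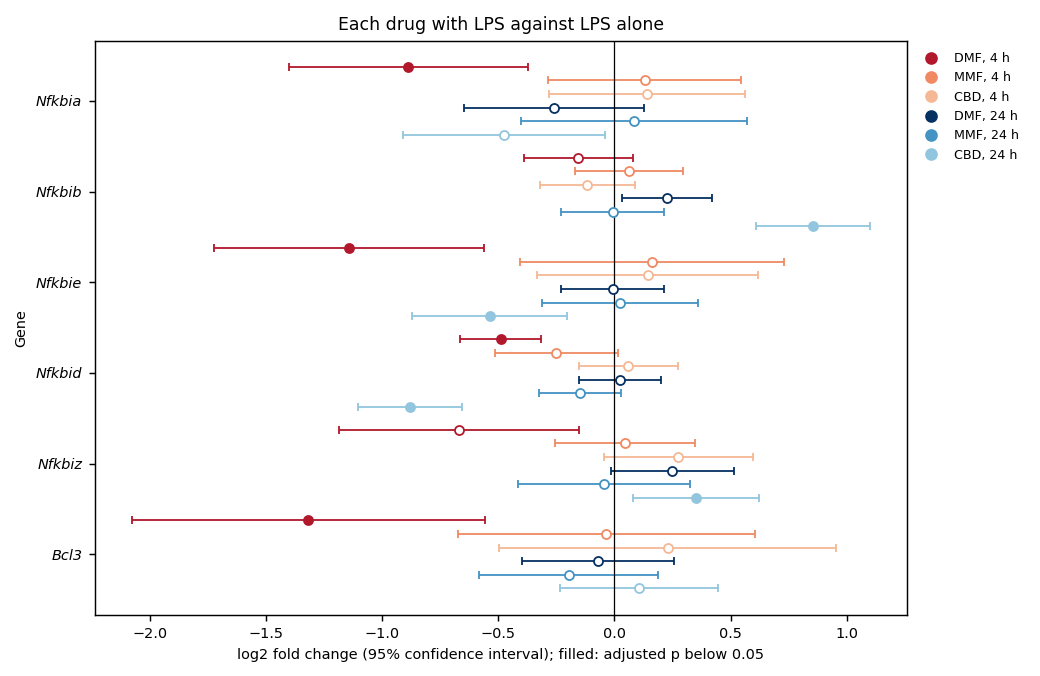
Points are limma log2 fold changes of LPS with DMF, MMF or CBD over LPS alone at 4 h (warm colours) and 24 h (blue), with 95% confidence intervals on 3 libraries per group, filled where the adjusted p is below 0.05. Filled points are DMF at 4 h in Nfkbia, Nfkbie, Nfkbid and Bcl3, and CBD at 24 h in Nfkbib, Nfkbie, Nfkbid and Nfkbiz.

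CBD had no detectable effect on the family at 4 h, and its members moved in different directions at 24 h. At 24 h 4 of 6 members were called, Nfkbib and Nfkbiz higher and Nfkbid and Nfkbie lower, where 48.7% of all genes were called, so that the count itself is no result about the family. Nfkbid stood at 758, 657 and 615 with CBD and 1302, 1149.9 and 1288 in LPS. The CBD libraries lay far below LPS and near the 691, 561 and 440.5 of the EtOH vehicle. Its log2 fold change was -0.88 (standard error 0.0999, adjusted p 0.000119) against LPS and 0.29 (adjusted p 0.14) against EtOH, the latter called without EtOH replicate 4 (0.0268) and with all 36 libraries in a single fit (0.0497). Nfkbie stood at 231, 325 and 231 against 345, 418 and 371, below LPS in every library, with -0.54 (standard error 0.149, adjusted p 0.0146). The call was lost without CBD replicate 1 (0.055) or 3 (0.0522). Against EtOH, Nfkbie was at 0.039 (adjusted p 0.854).

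Nfkbib stood at 1661, 1859 and 2249 with CBD at 24 h and at 1062, 1026 and 1086 in LPS. All CBD libraries were higher, with a log2 fold change of 0.85 (standard error 0.11, adjusted p 0.000234). Sirt2, which shares 778 bases with Nfkbib on the other strand, rose in the same comparison by 1.26 (adjusted p 2.15e-05) on the log2 scale, and its change from 4 h to 24 h was 1.37 (adjusted p 1.27e-05). Whether reads of Sirt2 were counted in Nfkbib was not tested. Nfkbiz stood at 2672, 3038 and 3109 against 1992, 2802 and 2190.5 in LPS, where LPS replicate 2 overlapped the CBD libraries. Its call (0.35, standard error 0.121, adjusted p 0.0361) was lost without LPS replicate 1 (0.123) or 3 (0.12), without CBD replicate 2 (0.0733) or 3 (0.106), and with all 36 libraries in a single fit (0.111). Nfkbia held 3154, 4544 and 3094 with CBD and 3755, 6420.0 and 4987 in LPS, a log2 fold change of -0.48 (adjusted p 0.068). It was called with the replicate block, which pairs these libraries (0.000499), by DESeq2 (0.0212), and without LPS replicate 1 (0.0172) or CBD replicate 2 (0.011). Bcl3 was at 0.11 (interval -0.23 to 0.45). The median over the 6 was -0.18.

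At 4 h 0 of 6 members were called for CBD by limma, where 0.00875% of all genes were (unadjusted in 0 members, 0 by edgeR and 0 by DESeq2). Nfkbid, for example, held 2181, 1858 and 1698 with CBD and 1886, 1774 and 1847 in LPS, overlapping, and the interval of its log2 difference was -0.15 to 0.27. The intervals were -0.32 to 0.087 for Nfkbib and -0.047 to 0.60 for Nfkbiz, and wider for Nfkbia (-0.28 to 0.56), Nfkbie (-0.33 to 0.62) and Bcl3 (-0.50 to 0.96). The change of the CBD effect from 4 h to 24 h was called in 2 of 6, against 31.9% of all genes. It was 0.98 (standard error 0.149, adjusted p 0.000269) for Nfkbib and -0.93 (standard error 0.142, adjusted p 0.000271) for Nfkbid, and neither call was lost whichever library was left out. With the replicate block Nfkbia (-0.61, adjusted p 0.00103, against 0.14 without it) and Nfkbie (-0.67, 0.00219, against 0.0759) were called as well. Without the block, leaving out LPS replicate 2 at 4 h called Nfkbia (0.0427) and Nfkbie (0.00924), and leaving out CBD replicate 2 at 24 h called Nfkbie (0.0296). Around the family at 24 h, where 48.7% of all genes were called, CBD changed 2 of 5 subunit genes, 5 of 10 kinase genes and activators, 1 of 6 destruction genes, 4 of 10 feedback genes and 7 of 8 tested targets, of which 4 rose and 3 fell. Apart from the targets, these counts were near or below the share of all genes and are no result about the lists. Il1b had a log2 fold change of -3.50 (adjusted p 6.04e-05), Lcn2 of 2.48 (adjusted p 1.91e-05) and Ccl2 of 2.29 (adjusted p 1.6e-05).

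CBD and DMF, at their own doses of 6 and 30 µM, were compared with each other at both times. CBD was dissolved in EtOH and DMF in DMSO, so that drug, dose and vehicle cannot be told apart in this comparison. At 4 h 5 of 6 members were higher with CBD, where 15.5% of all genes were called. These were Bcl3 (1.55, standard error 0.296, adjusted p 0.0083), Nfkbie (1.29, adjusted p 0.00356), Nfkbia (1.03, adjusted p 0.00863), Nfkbiz (0.95, adjusted p 0.0184) and Nfkbid (0.55, adjusted p 0.00587), while Nfkbib was not called (0.04, adjusted p 0.781). Only the Nfkbiz call was lost without a library, namely CBD replicate 2 (0.0633) or 3 (0.0616) or DMF replicate 3 (0.0774). At 24 h 3 of 6 were called, against 38.5% of all genes, so that the count itself is no result about the family. Nfkbib was higher with CBD (0.62, adjusted p 0.00352, with Sirt2 at 1.07, adjusted p 5.57e-05), and Nfkbid (-0.91, adjusted p 0.000103) and Nfkbie (-0.54, adjusted p 0.0163) were lower. The Nfkbie call was lost without CBD replicate 1 (0.0622), without DMF replicate 2 (0.0517) or 3 (0.0531), and with all 36 libraries in a single fit (0.0517). Nfkbia, at -0.22 (adjusted p 0.329), was called without CBD replicate 2 (0.0344).

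Set against MMF, CBD gave 0 of 6 calls at 4 h by limma, where 0.166% of all genes were called (unadjusted in 1 member, 0 by edgeR and 0 by DESeq2). The replicate block, which pairs these libraries, called 4, Nfkbid (0.31, adjusted p 0.000135), Nfkbiz (0.23, 0.0114) and Bcl3 (0.26, 0.0272) higher with CBD and Nfkbib lower (-0.18, 0.0227). CBD was dissolved in EtOH and MMF in DMSO, so that drug, dose and vehicle cannot be told apart here either. Between the vehicles alone at 4 h, DMSO over EtOH was -0.28 for Nfkbid, 0.31 for Nfkbiz, 0.023 for Bcl3 and 0.090 for Nfkbib. None of these was called by limma without the block. At 24 h 5 of 6 were called for CBD against MMF, against 48.3% of all genes. Nfkbib (0.86, adjusted p 0.000662, with Sirt2 at 1.21, adjusted p 8.89e-06) and Nfkbid (-0.73, adjusted p 0.000251) remained whichever library was left out. Nfkbie (-0.56, adjusted p 0.0297) was lost without CBD replicate 1 (0.1) or 3 (0.0902) or MMF replicate 2 (0.0859). Nfkbia (-0.56, adjusted p 0.0484) was lost without CBD replicate 1 (0.146) or 3 (0.139) or MMF replicate 2 (0.13) or 3 (0.0862). Nfkbiz (0.40, adjusted p 0.0488) was lost without CBD replicate 1 (0.0546), 2 (0.0809) or 3 (0.125) or MMF replicate 1 (0.171) or 3 (0.129). Nfkbia and Nfkbiz were also lost with all 36 libraries in a single fit (0.0549 and 0.074), Nfkbia by DESeq2 (0.115) and Nfkbiz by edgeR (0.0588). Bcl3 (0.30, adjusted p 0.0989) was called with the block (0.00517) and without MMF replicate 2 (0.00767).

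Against the vehicles rather than LPS, most members were higher in the groups given LPS with a drug. These comparisons share the drug libraries with those above. In LPS with DMF at 4 h, 4 of 6 were called against DMSO, all higher, where 23.5% of all genes were called. Nfkbiz was still high (2.18, standard error 0.213, adjusted p 0.000143), as were Nfkbib (0.68, adjusted p 0.00105) and Nfkbid (0.50, adjusted p 0.00679). Nfkbia was at 0.61 (adjusted p 0.0491), a call lost without DMSO replicate 4 (0.159) or 6 (0.138) or DMF replicate 1 (0.0731) or 2 (0.0789). Bcl3 was not called against the vehicle (0.41, adjusted p 0.263). Nfkbie pointed below it, at 134, 202 and 118 against 187, 298 and 247 in DMSO with DMF replicate 2 in the range of DMSO, and its -0.70 (adjusted p 0.0535) was called by DESeq2 (0.0182), with all 36 libraries in a single fit (0.0136), and without DMSO replicate 4 (0.0393) or DMF replicate 2 (0.00856). At 24 h all 6 were higher in LPS with DMF than in DMSO (40.2% of all genes). The log2 fold changes ran from 0.42 (adjusted p 0.011) for Nfkbie, which was at 0.16 in the single fit, to 2.09 (adjusted p 2.03e-07) for Nfkbiz.

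LPS with MMF against DMSO had 5 of 6 members higher at 4 h (8.22% of all genes called) and 5 at 24 h (22.4%), with Nfkbie not called (0.60, adjusted p 0.171, and 0.45, adjusted p 0.0704, by DESeq2 0.0453 and 0.0337). Nfkbiz was at 2.90 (adjusted p 7.94e-07) and 1.79 (adjusted p 3.01e-05) and Bcl3 at 1.69 (adjusted p 0.00062) and 1.75 (adjusted p 3.36e-05). LPS with CBD against EtOH had 5 higher at 4 h, against 13.6% of all genes, and 4 at 24 h, against 50.5%. At 24 h these were Bcl3 (2.34, standard error 0.144, adjusted p 2.13e-06), Nfkbiz (2.08, adjusted p 3.2e-07), Nfkbib (1.41, adjusted p 5.57e-06, with Sirt2 at 0.87, adjusted p 3.75e-05) and Nfkbia (1.03, adjusted p 0.00066). The member uncalled at 4 h was Nfkbie (0.26, adjusted p 0.25).

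Between 4 h and 24 h under LPS, Bcl3 went up in every treatment, Nfkbid fell in all but DMF, and Nfkbib fell in all but CBD, where it rose. In both vehicles without LPS, Bcl3 also rose and Nfkbid and Nfkbib also fell, as given above. The change of the LPS effect between the times was called in none of these genes with all libraries. In LPS alone 3 of 6 were called, against 48.9% of all genes, so that the count itself is no result about the family. These were Bcl3 (1.08, standard error 0.271, adjusted p 0.0084), Nfkbib (-0.66, adjusted p 0.000481) and Nfkbid (-0.57, adjusted p 0.000544). Nfkbiz (0.35, adjusted p 0.078) was called with the replicate block, which pairs these libraries (0.00352), and without LPS replicate 1 at 24 h (0.0473) or 2 at 4 h (0.00799). Leaving out that last library also called Nfkbie (0.20, 0.406 with all libraries and 0.0242 without it). The same 3 genes were called with MMF, against 49.5% of all genes, again a count that is no result about the family. Bcl3 was at 0.92 (adjusted p 0.00138), Nfkbib at -0.73 (adjusted p 0.000299) and Nfkbid at -0.46 (adjusted p 0.00621). Nfkbiz with MMF (0.26, adjusted p 0.146) had 0.0362 with the block and 0.0282 without MMF replicate 1 at 24 h. With DMF 5 of 6 were called, against 58.8% of all genes, 4 of them upwards: Bcl3 (2.32, standard error 0.227, adjusted p 2e-05), Nfkbie (1.34, adjusted p 0.000149), Nfkbiz (1.27, adjusted p 0.000339) and Nfkbia (0.80, adjusted p 0.00457).

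Nfkbib fell with DMF (-0.29, adjusted p 0.0319), a call lost without DMF replicate 1 (0.127) or 2 at 24 h (0.051) or replicate 3 at 4 h (0.118). Nfkbid was not called between the times with DMF (-0.056, adjusted p 0.571, interval -0.23 to 0.12). With CBD all 6 were called, against 63.2% of all genes. Nfkbid fell from 2181, 1858 and 1698 to 758, 657 and 615, a log2 fold change of -1.51 (standard error 0.11, adjusted p 3.19e-06), and Bcl3 (0.96, adjusted p 0.00183) and Nfkbiz (0.43, adjusted p 0.00435) rose. The remaining calls were lost on leaving out some libraries, where the log2 fold changes were 0.19 to 0.29 for Nfkbib, -0.38 to -0.35 for Nfkbia and -0.49 to -0.37 for Nfkbie. Nfkbib (0.31, adjusted p 0.0296, with Sirt2 at 1.49, adjusted p 1.3e-06) was lost without CBD replicate 3 at 24 h (0.0873) or replicate 1 (0.081) or 2 at 4 h (0.0743). Nfkbia (-0.44, adjusted p 0.0331) was lost without replicate 1 (0.121) or 3 at 24 h (0.102) or 2 (0.0976) or 3 at 4 h (0.124), and Nfkbie (-0.48, adjusted p 0.0228) without the same libraries (0.0862, 0.0687, 0.0809 and 0.0597). In the single fit of all 36 libraries, Nfkbia (0.123) and Nfkbie (0.0627) were not called.

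Over the 12 group means, which share libraries' experiments and depth, Nfkbia, Nfkbiz and Bcl3 followed each other, with Pearson's r of 0.91 for Nfkbia and Nfkbiz, 0.91 for Nfkbiz and Bcl3 and 0.88 for Nfkbia and Bcl3. Nfkbib and Nfkbie had 0.024, and Nfkbid and Bcl3 0.23. Among 3743 genes with a mean of at least 50 and a range of group means of at least 1 log2 unit, the most alike to Nfkbia were Pou2f2 (r = 0.97) and Cpd (0.96), and to Bcl3 Lrrc25 (0.99) and Socs3 (0.98), a suppressor of cytokine signalling. Nfkbiz was most like Rapgef2 (0.98) and Tnfrsf1b (0.98), a receptor for tumour necrosis factor. For Nfkbid the genes were Sgk3 (0.97) and Cd14 (0.97), the co-receptor for LPS, for Nfkbib Clec4e (0.96) and Plagl2 (0.94), and for Nfkbie Zfp658 (0.94) and Ttn (0.91). All of these values are descriptions over 12 points.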

How the data were processed

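RNA-seq of BV-2 cells was analysed in 36 libraries. Per the study's methods and the submitters' processing notes, the authors checked read quality with FastQC 0.12.1, removed adapters with cutadapt 4.4, selected the trimmed reads by length with Trimmomatic 0.39, aligned them to GRCm39 with HISAT2 2.2.1, counted them per gene with HTSeq 2.0.3 and tested them with DESeq2 1.40.2 in R 4.3.1. The strand setting of the counting is not given in the sources used here. The deposited values are a signal, namely read counts that the authors divided by DESeq2 size factors within each of 30 pairwise tables of 6 libraries (17161 to 17778 genes). The tables also hold the authors' own comparisons (mean level, log2 fold change and its error, test statistic, p-value, adjusted p and direction), none of which was used.

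Whole reads were recovered by dividing each column by the value of 1 read. In 155 columns 100% of values lay within 0.01 reads of a whole number, and the other 25 columns were read from the same libraries in other tables. Levels were recovered reads divided by median-of-ratios factors over all 36 libraries. Comparisons were fitted with limma 3.58.1 (R 4.3.3; lmFit, eBayes with a trend) on log2(deposited normalized count + 1), on each table's own scale, over genes with at least 10 in at least 3 libraries. P-values were adjusted by the Benjamini-Hochberg method over all genes tested and called below 0.05. All p-values are two-sided, and they measure the spread between libraries of 1 cell line. The count test on the recovered reads, edgeR 4.0.16, called 1607 genes for LPS against DMSO at 4 h (limma 1609), 1268 for DMF with LPS against LPS at 4 h (limma 1257) and 5705 for CBD with LPS against LPS at 24 h (limma 5687). Changes of an effect between times were interaction terms over 12 libraries. Alternatives were a pseudocount of 5, no filter, edgeR, DESeq2 1.42.0, all 36 libraries in a single fit, a replicate block, TMM factors for levels, and leaving out each library. Fits were tested on simulated data.

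Within a group, chi-square per degree of freedom between libraries was 4.83 to 31.0, so that no library was a copy of another. Replicate numbers were taken to pair libraries where all 3 same-numbered correlations of deviations from the group means, over genes with a mean of at least 50, exceeded 0.1. This held in 14 of 20 comparisons between groups that share numbers, and the pairing comes from the data, not from the labels. The members, the gene lists and the tests were chosen with earlier results of these data known. All 6 members were named, and of the pathway lists at most 3 called genes per comparison with the largest changes. Gene structure came from GENCODE on GRCm39 and promoter sequences from RefSeq (GRCm38.p6).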

Additional observations from a re-analysis of the deposited data

Results flagged for a closer look

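The effect of LPS or of a drug differed between 4 h and 24 h, by the interaction term of the limma fit, in 7 instances. For LPS this concerned Nfkbiz, with a change of -1.02 on the log2 scale against DMSO and -1.42 against EtOH. For DMF with LPS against LPS the changes were 1.13 for Nfkbie, 0.50 for Nfkbid and 0.91 for Nfkbiz. For CBD with LPS against LPS they were 0.98 for Nfkbib, beside 1.37 for Sirt2, which overlaps it, and -0.93 for Nfkbid. Adjusted p-values stand beside these values above, and the part of Sirt2 reads in the Nfkbib value was not tested.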

How the results depend on the processing

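Of 2628 values of single genes under an alternative, 2386 kept their call, and 88 changed sign with the value called neither before nor after. No called value reversed. The 72 levels were 0.984 to 1.02 times as high with TMM factors, and none moved by its SD or more. The count of members called moved by over 1.5 times in 7 of 198 other settings and in 19 of 240 settings without a library. The replicate block gave 3 against 0 for DMF against LPS at 24 h, 4 against 0 for CBD against MMF at 4 h, 4 against 0 for DMF against MMF at 24 h, 1 against 0 for DMSO against EtOH at 4 h, 5 against 3 for the change of the DMF effect between times and 4 against 2 for that of CBD. The single fit of 36 libraries gave 3 against 5 for CBD against MMF at 24 h. The cause was not tested.

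Leaving out 1 library gave 1 to 5 members for DMF against LPS at 4 h (4 with all libraries), 0 to 1 at 24 h (0), 2 to 4 for CBD against LPS at 24 h (4), 0 to 4 for DMF against MMF at 4 h (3), 0 to 1 at 24 h (0) and 2 to 4 for CBD against MMF at 24 h (5). It gave 3 to 5 for 24 h against 4 h in LPS (3), 3 to 6 in LPS with CBD (6), 1 to 3 for the change of the LPS effect against EtOH (1) and 2 to 4 for the change of the CBD effect (2). In all, leaving out a library ended 74 calls and added 30, the replicate block ended 0 and added 25, the single fit ended 9 and added 5, DESeq2 2 and 6, edgeR 1 and 1, and no filter 1 and 0. A pseudocount of 5 changed no call.

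Same-numbered libraries were not paired by the rule in 6 comparisons, where the lowest correlation was 0.081 for MMF against LPS at 4 h, 0.042 for DMF against MMF at 4 h, and 0.0079 for DMSO, 0.037 for EtOH, 0.027 for LPS with DMF and 0.035 for LPS with CBD between the times. In none of these 6 did every library correlate best with its own number. The same failed at 4 h for DMF against LPS and CBD against DMF, which the rule paired. At 24 h it failed for the paired CBD against LPS, DMF against MMF and DMSO against EtOH. It also failed between the times in LPS with MMF, so that the pairing in these comparisons is less certain. The following block results concern the 6 comparisons not paired by the rule. In those 6 the block added Nfkbiz for DMF against MMF at 4 h (4 against 3 members, adjusted p 0.00635). Between the times it added Nfkbia in DMSO (5 against 4, 0.0042) and Nfkbia (0.0319) and Nfkbie (0.0382) in EtOH (6 against 4). Where the numbers pair the libraries, the block changed no call other than those given beside the results.

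Counts over all genes moved by over 1.5 times as follows. The single fit called 2435 against 1609 genes for LPS against DMSO at 4 h, 2580 against 1257 for DMF against LPS at 4 h, 2422 against 949 for DMF against MMF at 4 h, 3122 against 1770 for CBD against DMF at 4 h, 4297 against 2690 for DMF against DMSO at 4 h and 30 against 19 for CBD against MMF at 4 h. The block called 4566 against 2926 for DMF against LPS at 24 h, 4639 against 2508 for DMF against MMF at 24 h, 1740 against 949 for DMF against MMF at 4 h, 889 against 19 for CBD against MMF at 4 h, 876 against 0 for DMSO against EtOH at 4 h and 20 against 1 at 24 h, and 5 against 0 for the change of the MMF effect. For MMF against LPS at 4 h (14) it called 179, DESeq2 53 and the single fit 55, and at 24 h (0) the block called 206, DESeq2 17, the single fit 6 and no filter 3. For CBD against LPS at 4 h (1) the block called 4, DESeq2 and the single fit 3 each and no filter 2. DESeq2 called 74 against 19 for CBD against MMF at 4 h, and for DMSO against EtOH 87 against 0 at 4 h and 3 against 1 at 24 h, where the single fit called 3 and 0. The 3 libraries per group set the width of the intervals given above.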
